A study of Mus musculus with 177 samples.

Results

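The mitosis genes are 41 genes whose products carry a cell from the end of DNA replication through chromosome condensation, spindle assembly, chromosome segregation and the splitting of the cytoplasm. They were taken as a named list of gene symbols, and a gene entered where the array annotation assigns a probe set to it and to no other gene. This held for 40 of the 41 members, out of 19937 genes tested. Ccnb1, which encodes cyclin B1, has no level here. Top2a has 2 such probe sets, of which the one with the highest mean in each tissue was used, and the other 39 members have 1 each.

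The animals were C57BL/6 mice at postnatal day 7, with no transgene or other allele named in the labels. The design text gives 62 mice, randomized to 6 groups. In 4 groups, hypoxia at an inspired oxygen fraction of 0.08 lasted 120 min and was followed by 30 min of 21, 40, 60 or 100% oxygen, and these groups are called H21, H40, H60 and H100. In 2 control groups, air (0.21) was breathed during the first 120 min and then 21 or 100% oxygen for 30 min, and these are called N21 and N100. All groups were kept in air for a further 150 min, after which the 3 tissues (lung, brain and eye) were collected. Levels are log2 values from whole-tissue RNA on Affymetrix Mouse Gene 1.0 ST arrays. In such bulk samples, fewer dividing cells and less RNA of a gene per dividing cell cannot be told apart. Lung had 60 arrays (N21 9, N100 10, H21 9, H40 9, H60 12, H100 11), brain 58 (9, 9, 9, 9, 11 and 11) and eye 56 (9, 9, 9, 9, 9 and 11). These numbers leave out 3 arrays of H40, 1 labelled with each tissue, whose profile over genes was closer to another tissue than to their own. The labels number the arrays but do not tie each to an animal, so the p-values measure the spread between these arrays.

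Transcription of these genes is tied to the cell cycle. Most are silent in resting cells and early in the cycle and are switched on late, in G2, when a repressor complex called DREAM gives way to activators built around B-MYB and FOXM1. The promoter element that both kinds of complex read is the cell cycle genes homology region (CHR), usually TTTGAA or TTTAAA, and it often lies downstream of CCAAT boxes bound by the factor NF-Y. Genes of DNA replication, which are needed earlier, are better known for E2F sites such as GCGGGAA. At the age studied, division is widespread in the growing mouse lung, in the cerebellum, where precursors of granule neurons are multiplying, and in the peripheral retina, where the last progenitors are making rods and other late cell types.

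Promoter sequences were taken from RefSeq (GRCm38.p6) as windows of 300 bases, from 250 before to 50 after the first listed transcription start, and were found for 35 of the 41 members. TTTGAA, on either strand, was present in 27 of the 35 windows (77.1%), against 18.1% of all 27025 windows and 10.7% of the 28 windows of DNA replication genes. TTTGAA or TTTAAA was present in 85.7% of the members and 27.8% of all windows. CCAAT, on either strand, was present in 71.4% against 37.9%, and 2 or more CCAAT in 42.9% against 12.2%. Of the DNA replication windows, 57.1% held CCAAT and 32.1% held 2 or more. Further mitosis genes outside the 41, with 48 windows, held TTTGAA in 62.5%, CCAAT in 68.8% and 2 or more CCAAT in 52.1%. These motifs are thus not particular to the 41 members. Of the 46 TTTGAA or TTTAAA matches in members, 32 began between 50 bases before and 50 bases after the start. Positions were counted in members only, so this share has no background beside it. GCGGGAA was in 1 of the 35 member windows (2.86%), against 4.66% of all windows and 46.4% of those of DNA replication genes. No motif searched contains another, and a match is a description of the sequence, not a site of binding.

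The stretches below show the 150 bases that end just before the start of 4 members, chosen because their levels or correlations are described further on, and of 2 DNA replication genes for contrast. They are written 5′ to 3′ on the strand of the gene, and capitals mark the CCAAT boxes, the CHR letters TTTGAA and the E2F letters GCGGGAA, on either strand. Cdk1 (the mitotic kinase, chr10:69352913-69353062, minus strand) and Ube2c (a ubiquitin-conjugating enzyme of mitotic exit, chr2:164769779-164769928, plus strand) each hold 2 CCAAT motifs, 32 and 31 bases apart. Kif11 (a spindle kinesin, chr19:37376232-37376381, plus strand) and Cdc20 (an activator of the anaphase-promoting complex, chr4:118437344-118437493, minus strand) hold 1 and 2. All 4 hold TTTGAA on either strand. Mcm6 (a subunit of the replicative helicase, chr1:128359706-128359855, minus strand) holds 2 CCAAT and no TTTGAA. Pola1 (the catalytic subunit of DNA polymerase alpha, chrX:93632156-93632305, minus strand) holds 1 CCAAT and 1 GCGGGAA. It was chosen because its stretch holds GCGGGAA, which was in 46.4% of the windows of DNA replication genes.
Cdk1: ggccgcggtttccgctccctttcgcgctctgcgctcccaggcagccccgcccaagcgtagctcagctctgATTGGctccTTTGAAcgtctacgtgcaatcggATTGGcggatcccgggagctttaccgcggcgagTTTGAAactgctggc
Ube2c: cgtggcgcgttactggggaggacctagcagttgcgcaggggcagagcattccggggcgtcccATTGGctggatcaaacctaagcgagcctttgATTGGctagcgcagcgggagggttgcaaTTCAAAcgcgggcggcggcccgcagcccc
Kif11: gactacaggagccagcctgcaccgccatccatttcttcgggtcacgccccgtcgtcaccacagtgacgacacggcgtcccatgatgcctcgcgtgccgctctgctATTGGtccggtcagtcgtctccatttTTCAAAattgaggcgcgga
Cdc20: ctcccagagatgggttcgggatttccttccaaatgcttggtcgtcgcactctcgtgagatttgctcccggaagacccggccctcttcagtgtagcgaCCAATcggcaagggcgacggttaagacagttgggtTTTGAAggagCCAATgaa
Mcm6: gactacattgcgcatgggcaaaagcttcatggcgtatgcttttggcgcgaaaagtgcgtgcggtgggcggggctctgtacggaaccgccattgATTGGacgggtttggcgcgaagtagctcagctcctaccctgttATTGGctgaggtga
Pola1: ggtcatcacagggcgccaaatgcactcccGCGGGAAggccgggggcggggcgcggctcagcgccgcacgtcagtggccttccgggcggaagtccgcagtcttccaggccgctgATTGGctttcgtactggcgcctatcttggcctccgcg

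Tissue was checked before the results. All but 3 of the arrays (61 labelled lung, 59 brain and 57 eye) correlated best, across genes, with the mean profile of the labelled tissue. Lung H40 number 10 correlated at r = 0.987 with brain and 0.817 with lung, Brain H40 number 7 at 0.962 with eye and 0.875 with brain, and Eye H40 number 9 at 0.958 with lung and 0.881 with eye. No 2 arrays held identical values. The sample records fall into a first run ordered by group and later runs, which the labels do not call batches. In the first run stood 38 lung, 38 brain and 37 eye arrays. The groups were not spread evenly over the runs: 8 of the 10 lung arrays of N100 were in the first run, against 5 of the 9 of N21.

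Hypoxia was first compared with normoxia over all oxygen groups, as the mean of the 4 hypoxia groups minus the mean of the 2 normoxia groups. No mitosis gene passed limma's test (Benjamini-Hochberg adjusted p under 0.05 over all 19937 genes) in any tissue. The members lay on both sides of 0 in lung and mostly above 0 in brain. In eye all 40 estimates lay above 0, with intervals that included 0 for every member but Cenpa. In lung, 1.66% of all genes passed (210 higher and 121 lower after hypoxia), and 0 of 40 members did. In brain and in eye, 0.0853% of genes passed (17 in each), and again 0 of 40 members did. Unadjusted p was under 0.05 for 0 members in lung, 0 in brain and 1 in eye, against 9%, 3.18% and 5.02% of all genes.

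The median change of the 40 members was 0.016 in lung, 0.020 in brain and 0.12 in eye on the log2 scale, and that of all genes was 0.0091, -0.0027 and 0.0027. In lung 24 members lay above 0 and 16 below, from Ncaph at -0.11 to Plk1 at 0.097. In brain 35 lay above and 5 below, from Anln, a scaffold of the cytokinetic ring, at -0.021 to Cdc20 at 0.11. In eye they ran from Ndc80, a kinetochore subunit that binds microtubules, at 0.0078 to Ect2 at 0.23. The members varied together between arrays, as given further on, so counts of signs here and below are not counts of independent results. The sign of the median in lung and brain depended on the fit: it was -0.0093 in lung with the array of another tissue included, and -0.00053 in brain with the run of records as a block. In eye it ran from 0.12 to 0.20 over the 11 alternative fits. Within the first run it was 0.037 in lung, 0.0049 in brain and 0.18 in eye.

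**Figure D1:**
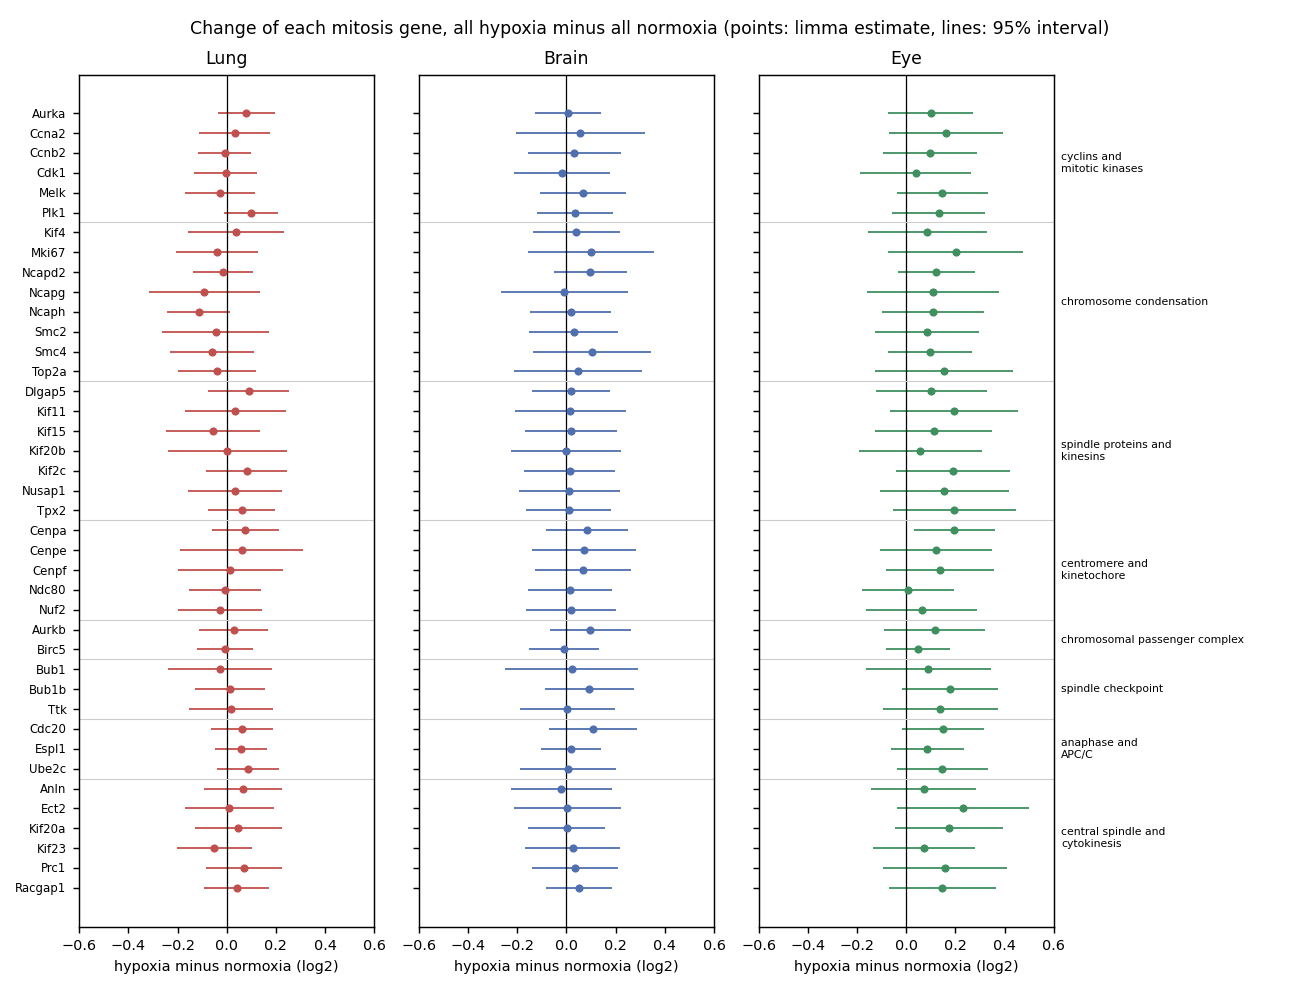
Change of each of the 40 measured mitosis genes on the log2 scale, hypoxia minus normoxia, in lung, brain and eye, ordered by role. Points are limma estimates and lines are 95% intervals; the estimates lie on both sides of 0 in lung, above 0 for 35 members in brain, and above 0 for all 40 in eye, and no member passed the adjusted test.

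The 95% intervals of all hypoxia minus all normoxia, taken gene by gene, give a range of changes compatible with these arrays. Over the members the lowest bound in lung was 0.803-fold and the highest 1.24-fold. In brain the bounds were 0.831-fold and 1.28-fold, and in eye 0.875-fold and 1.41-fold. The median standard error of a member was 0.078 in lung, 0.093 in brain and 0.11 in eye, against 0.062, 0.063 and 0.064 over all genes. It reflects the spread between arrays, which the members share to a large extent, as given further on. Contrasts of single groups rest on fewer arrays. For Ect2 in eye the log2 interval was -0.11 to 0.78 for H60 minus N21, against -0.037 to 0.50 for all hypoxia.

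Among cyclins and mitotic kinases, Plk1, the kinase that matures centrosomes and drives mitotic entry, had the largest estimate in lung at 0.097 ± 0.055 (SE; adjusted p = 0.681 by limma). Its lung levels ran from 8.44 to 8.80 with a median of 8.55 in N21 and from 7.74 to 8.65 (8.46) in N100. They ran from 8.16 to 8.76 (8.43) in H21, 8.49 to 8.97 (8.67) in H40, 8.21 to 8.91 (8.58) in H60 and 8.31 to 8.84 (8.52) in H100. The 6 groups overlapped, and the lowest single value was in N100. Aurka, the kinase of spindle poles, was at 0.079 ± 0.058 in lung. Melk, a kinase expressed in dividing progenitors, was at 0.068 ± 0.088 in brain and 0.15 ± 0.092 in eye. Cdk1 itself was at -0.0052 ± 0.065 in lung, -0.019 ± 0.098 in brain and 0.038 ± 0.11 in eye.

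Of the genes of chromosome condensation, Ncaph, a subunit of condensin I, had the smallest p of any member in lung. Its lung levels ran from 8.25 to 8.82 with a median of 8.58 in N21, and from 7.94 to 9.26 (8.52) in N100. After hypoxia they ran from 7.86 to 8.75 (8.45) in H21, 8.05 to 8.79 (8.35) in H40, 8.20 to 8.82 (8.48) in H60 and 7.89 to 8.60 (8.48) in H100. The hypoxia medians were below both normoxia medians, the groups overlapped, and the change was -0.11 ± 0.065 (p = 0.082, adjusted p = 0.681 by limma). In brain, Ncapd2, another condensin I subunit, was at 0.097 ± 0.074, Smc4, a condensin ATPase, at 0.10 ± 0.12 and Mki67, which coats mitotic chromosomes, at 0.099 ± 0.13. The brain estimate of Ncapd2 was -0.0051 within the first run of records.

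Among spindle and kinetochore genes, Cenpa, the histone H3 variant that marks centromeres, was the member with the smallest p in eye. Its eye levels ran from 7.54 to 8.39 with a median of 8.09 in N21 and from 7.34 to 8.08 (7.54) in N100. They ran from 7.40 to 8.46 (7.70) in H21, 7.56 to 8.49 (8.12) in H40, 7.53 to 8.49 (8.0) in H60 and 7.53 to 8.31 (8.07) in H100. N100 had the lowest median and the lowest value, and all 6 groups overlapped. Over all hypoxia groups Cenpa was at 0.20 ± 0.082 in eye (1.15-fold, interval 0.032 to 0.36, p = 0.0199, adjusted p = 0.837 by limma), 0.084 ± 0.083 in brain and 0.076 ± 0.068 in lung. Kif2c, a kinesin that takes microtubules apart at centromeres, was at 0.19 ± 0.12 in eye and 0.080 ± 0.082 in lung, and Dlgap5, which stabilizes kinetochore fibres, at 0.088 ± 0.082 in lung. Of the chromosomal passenger complex, the kinase Aurkb was at 0.097 ± 0.082 in brain. Bub1b, the checkpoint protein BUBR1, was at 0.18 ± 0.098 in eye and 0.092 ± 0.090 in brain.

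Of the genes of anaphase and its ubiquitin ligase APC/C, Cdc20 was at 0.15 ± 0.084 in eye and 0.11 ± 0.090 in brain. Ube2c, the conjugating enzyme of that ligase, was at 0.15 ± 0.093 in eye and 0.085 ± 0.063 in lung, and Espl1, the protease separase, at 0.058 ± 0.052 in lung. Among genes of the central spindle and cytokinesis, Ect2, which activates RhoA at the cell equator, had the largest eye estimate at 0.23 ± 0.13 (p = 0.0891, adjusted p = 1 by limma). Its median in eye was 7.68 in N21 and 7.68 in N100, against 8.02, 8.11, 8.16 and 8.08 in H21, H40, H60 and H100. Single eyes ran from 6.83 to 8.28 in N21 and from 7.31 to 8.78 in H60, so the groups overlapped widely. Kif20a, a kinesin of the central spindle, was at 0.17 ± 0.11 in eye.

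The oxygen given after hypoxia was compared in 8 further contrasts per tissue, and 0 of 40 members passed limma's test in each of these 24. For lung the share of all genes called was 0.0502% for H21 minus N21, 0.00502% for H40, 0% for H60, 0.0201% for H100 and 0% for N100 against N21. Between H100 and H21 it was 0%, for H100 minus N100 0.105%, and 0% for the slope over oxygen within the hypoxia groups. For brain it was 0.01% for H100 minus N100 and 0% for the other 7 contrasts, and for eye 0.00502% for H21 minus N21 and 0% for the other 7. The comparisons with N21 share its arrays. With such backgrounds, a count of 0 among 40 members does not set them apart from other genes.

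In lung the members' median was -0.085 for H21 minus N21 (32 of 40 below 0), 0.056 for H40, 0.045 for H60, -0.028 for H100 and -0.048 for N100. It was 0.040 for H100 minus H21 and -0.0063 for the slope. In brain the medians against N21 were 0.0067, 0.053, -0.016 and 0.042 for H21, H40, H60 and H100. Ncapd2 gave the smallest p in brain: levels ran from 7.46 to 8.26 (median 7.94) in N21, 7.69 to 8.25 (7.97) in N100, 7.38 to 8.32 (7.88) in H21, 7.80 to 8.34 (8.0) in H40, 7.69 to 8.68 (7.90) in H60 and 7.73 to 8.71 (8.11) in H100. H100 had the highest median and overlapped every other group. H100 minus N21 was 0.26 ± 0.12 (p = 0.0293, adjusted p = 0.997 by limma).

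In eye the contrasts that involve N100 stood farthest from 0. For N100 minus N21 the members' median was -0.16, with 39 of 40 below 0, and for H100 minus N100 it was 0.19, with 39 of 40 above 0. These 2 contrasts share the N100 arrays. All genes had medians of 0.012 and -0.0036, with 54.2% and 48.9% above 0. The first-run medians were -0.21 and 0.34. The medians against N21 were -0.0050 for H21, 0.063 for H40, 0.11 for H60 and 0.033 for H100. Within the first run they were -0.024, 0.14, 0.14 and 0.16. For H40 the median was 0.21 with the array of another tissue included.

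Cenpa was at -0.37 ± 0.13 for N100 minus N21 (p = 0.00759, adjusted p = 0.94 by limma) and at 0.44 ± 0.13 for H100 minus N100 (p = 0.00111, adjusted p = 0.343). Cdc20 in eye ran from 7.05 to 7.64 (median 7.51) in N21, 6.83 to 7.64 (7.04) in N100, 6.90 to 7.91 (7.40) in H21, 6.86 to 8.09 (7.31) in H40, 6.98 to 7.70 (7.25) in H60 and 6.96 to 7.83 (7.66) in H100. Its N100 median was the lowest and its H100 median the highest, and the groups overlapped. H100 minus N100 was 0.42 ± 0.13 (p = 0.00205, adjusted p = 0.402 by limma). Ube2c had eye medians of 7.04, 6.68, 6.97, 7.04, 6.88 and 6.97 in N21, N100, H21, H40, H60 and H100, and was at 0.32 ± 0.15 for H100 minus N100 (p = 0.0331, adjusted p = 0.537 by limma). Unadjusted p was under 0.05 for these 3 members in H100 minus N100 (7.5%, against 8.7% of all genes). With array quality weights, which give noisy arrays less influence, the same 3 passed: Cenpa at 0.55 ± 0.11 (adjusted p = 0.0101), Cdc20 at 0.53 ± 0.11 (0.0106) and Ube2c at 0.48 ± 0.13 (0.0399), among 432 genes called. Over the 11 alternative fits of this contrast the smallest adjusted p of a member ran from 0.0101 to 0.651. Female arrays were 7 of 9 in N21, 5 of 9 in N100 and 6 of 11 in H100 of eye.

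**Figure D2:**
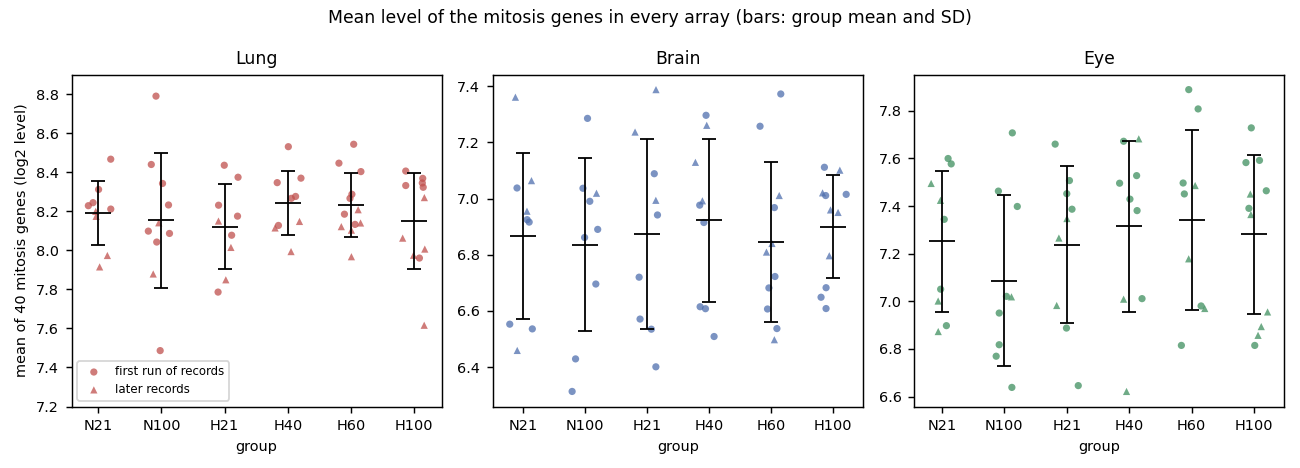
Mean log2 level of the 40 mitosis genes in every array of lung, brain and eye, by group; circles are arrays of the first run of sample records, triangles later ones, and bars the group mean and SD. Levels are not comparable between panels; in eye the N100 mean is 7.09 against 7.25 in N21 and 7.24 to 7.34 in the hypoxia groups, and every group spans a wide range in each tissue.

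The mean over the 40 members summarizes each array. In eye it was 7.25 ± 0.29 (SD, n = 9) in N21, 7.09 ± 0.36 (n = 9) in N100, 7.24 ± 0.33 (n = 9) in H21, 7.31 ± 0.36 (n = 9) in H40, 7.34 ± 0.38 (n = 9) in H60 and 7.28 ± 0.33 (n = 11) in H100. The group means differed by less than 1 SD of any group. In lung the groups ran from 8.12 ± 0.22 (n = 9) in H21 to 8.24 ± 0.16 (n = 9) in H40, and in brain from 6.84 ± 0.31 (n = 9) in N100 to 6.92 ± 0.29 (n = 9) in H40. Within groups the SD was 0.23 in lung, 0.28 in brain and 0.34 in eye, which is larger than the differences between group means in each tissue. This SD describes single arrays, and setting it beside the group means is not a test of their difference.

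The change after hypoxia was then compared between tissues in 1 fit of the kept arrays of all tissues. No member passed: 0 of 40 for lung minus brain (0.451% of all genes), 0 of 40 for lung minus eye (0.396%) and 0 of 40 for brain minus eye (0.01%), and 0 had an unadjusted p under 0.05. The estimates for lung minus eye were below 0 for 40 of 40 members, with a median of -0.12 against 0.0045 over all genes. Since the members varied together between arrays, these 40 signs are not 40 independent results. The smallest p for lung minus eye belonged to Ncaph at -0.22 ± 0.12 (p = 0.067, adjusted p = 0.928 by limma). The median was -0.088 for brain minus eye and -0.0097 for lung minus brain. This fit treats the arrays of different tissues as independent, and animals that gave more than 1 tissue, which the labels do not identify, were not modelled.

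Other genes of the cell cycle were described by lists. Of 57 measured further mitosis genes (such as Incenp, Mad2l1, Spc25, Aspm and Hmmr, outside the 41), 0 passed in any tissue for all hypoxia, with a median of 0.032 for lung, 0.019 for brain and 0.070 for eye. Of 22 transcription regulators of the cycle, such as E2F and DREAM genes, of 15 APC/C subunits and of 10 cohesin genes, 0 passed in any tissue. The share of all genes was 1.66% in lung and 0.0853% in brain and in eye. Counts of 0 in lists of these sizes do not set them apart from other genes. Of the DNA replication genes in lung, 5 of 33 passed, against 1.66% of all genes, each of them lower, and 32 of 33 lay below 0, with a median of -0.15. Their medians were -0.026 in brain and 0.00061 in eye, where 0 of 33 passed.

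In lung, Chaf1b, a histone chaperone of new chromatin, fell by 0.29 ± 0.061 (adjusted p = 0.00231 by limma) and was below the normoxia mean in 39 of 41 hypoxia arrays. The helicase subunits Mcm6 and Mcm5 were at -0.28 ± 0.064 (adjusted p = 0.00742) and -0.23 ± 0.061 (0.0271), and Pole, of the leading-strand polymerase, at -0.29 ± 0.076 (0.0272), each below the normoxia mean in 36 of 41. Mcm7, of the same helicase, was at -0.21 ± 0.051 (0.0107), below it in 39 of 41. Ccnd1, the cyclin of G1 entry, was at -0.41 ± 0.072 (adjusted p = 0.000198 by limma, 37 of 41 arrays below), and 1 of 9 G1 cyclins and kinases passed. Of 18 inhibitors and p53 targets 2 passed, again against 1.66% of all genes: Cdkn1c, the inhibitor p57, rose by 0.26 ± 0.063 (0.0143, 37 of 41 above) and Plk2 was at -0.29 ± 0.079 (0.0345, 33 of 41 below). The lung medians, -0.15 for replication and 0.016 for mitosis, are set side by side as a description, and the difference was not tested.

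These lung calls rest on all runs together. In the first run alone 0 of the 33 DNA replication genes and 23 of all genes passed, with Chaf1b at -0.19, Mcm6 at -0.20, Ccnd1 at -0.35 and Cdkn1c at 0.29 (adjusted p = 0.109 to 0.587 among these 4). The count was 9 with array quality weights (834 genes called in all), 7 with the run as a block and 3 with the array of another tissue included. It was also 3 without N100 number 2 and without N21 number 3. Pole lost its call without any of 7 arrays (N100 2, 6 and 8, N21 3, 4, 5 and 6), Mcm5 without any of 4 (N100 2 and 9, N21 3 and 8) and Plk2 without any of 9 (N100 1, 2, 3, 6 and 8, N21 1, 3, 4 and 6), with adjusted p up to 0.0622, 0.0637 and 0.0668.

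**Figure D3:**
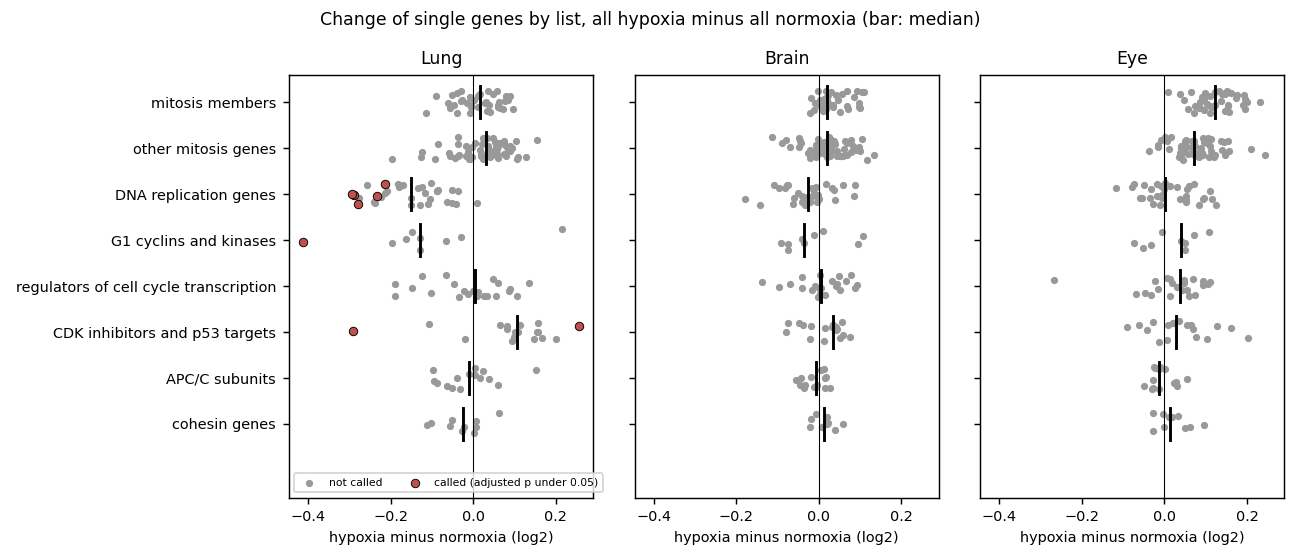
Change of single genes on the log2 scale, hypoxia minus normoxia, by list and tissue; grey points are genes not called, coloured points genes with an adjusted p under 0.05, and bars list medians. In lung the mitosis lists centre at 0.016 and 0.032 while DNA replication centres at -0.15 with 5 of 33 genes called, and in eye the mitosis members centre at 0.12.

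The members varied together from array to array. After each gene's group mean was removed, the median Pearson r over the 780 pairs of members was 0.642 in lung (60 arrays), 0.649 in brain (58) and 0.767 in eye (56). In eye 0 of the 780 pairs were below 0, in brain 1 and in lung 76. The first principal component held 60.7%, 65.2% and 75.5% of the members' variance. For comparison the 105 pairs of APC/C subunits, which are expressed through the whole cycle, had medians of 0.091, 0.011 and 0.078, and the 528 pairs of DNA replication genes 0.431, 0.296 and 0.365. Cohesin genes, over 45 pairs, had 0.769, 0.679 and 0.669. These correlations are descriptions, since the genes of an array share its RNA, amplification and normalization.

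Some members followed the rest less closely. In lung, Ube2c had a mean r of 0.067 with the other 39 members, Birc5, the passenger protein survivin, 0.15, Cenpa 0.21, Aurkb 0.22 and Cdk1 0.22, whereas Melk had 0.69 and Kif2c 0.68. Only group means were removed, so differences between runs of records remained in these r. For later minus first runs in lung, Ube2c, Birc5, Cenpa, Aurkb and Cdk1 were at 0.19, 0.095, -0.046, 0.14 and 0.050. The member median was -0.27. Tpx2, at -0.038, had a mean r of 0.63. With runs also removed, 47 lung pairs were below 0. The part of the runs in the low r was not tested. In brain, Espl1 (0.31), Birc5 (0.40), Cdc20 (0.43) and Ncapd2 (0.46) were lowest and Top2a, the topoisomerase that untangles sister chromatids, highest at 0.74. In eye, Espl1 (0.53), Cdc20 (0.57) and Ncapd2 (0.60) were lowest and Kif11 highest at 0.82. Espl1, Cdc20 and Ncapd2 were thus among the 4 lowest in brain and the 3 lowest in eye.

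**Figure D4:**
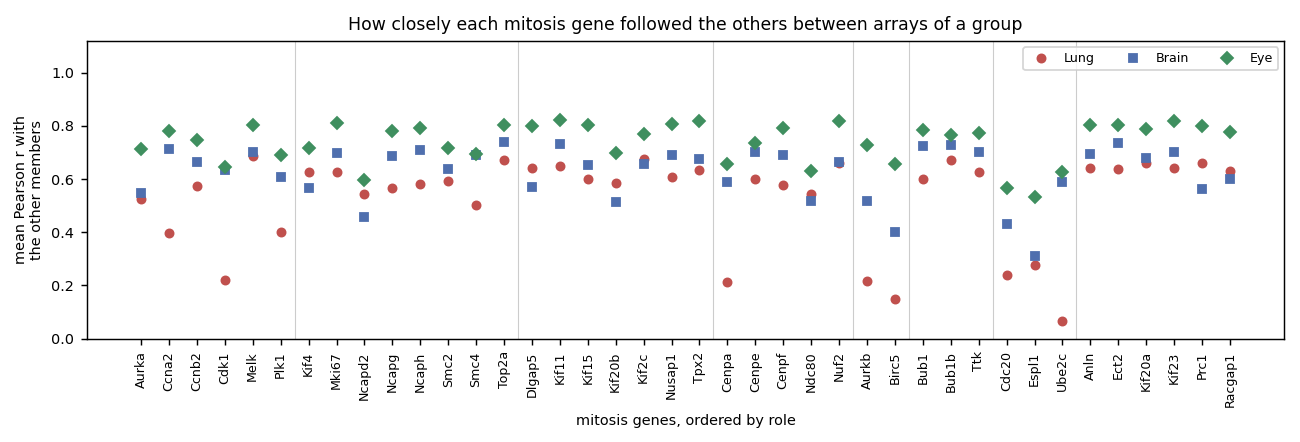
Mean Pearson r of each mitosis gene with the other members, after removal of group means but not of run differences, in lung (circles), brain (squares) and eye (diamonds). Genes are ordered by role. Eye values lie between 0.53 and 0.82, and in lung Ube2c, Birc5, Cenpa, Aurkb and Cdk1 lie lowest, from 0.067 to 0.22.

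In all 3 tissues the list closest to the member mean was the further mitosis genes (r = 0.928 in lung, 0.983 in brain and 0.967 in eye). Transcription regulators of the cycle also moved with it, at r = 0.606, 0.788 and 0.794, as did DNA replication genes. Among cell type markers, in brain it moved with 8 markers of cerebellar granule cell precursors (Atoh1, Barhl1, Gli1, Gli2, Ptch1, Zic1, Mycn and Neurod1), at r = 0.863 and rho = 0.813 over 58 arrays after removal of group means. The r was 0.861 without the 2 arrays farthest out, 0.898 in the first run (38 arrays) and 0.724 later (20). It was taken with the mean of the 8 markers, and single markers were not examined. Whether each of the 8 is particular to dividing precursors was not checked. Brain arrays were spread unevenly along this marker mean, so r was also taken apart: within the 35 arrays above their group mean r was 0.471 and within the 23 below it 0.697. Each of the 40 members had r above 0 with the markers, from 0.377 to 0.897. The marker mean ran from 7.12 to 7.91 in N21, 7.18 to 8.06 in N100, 7.03 to 8.14 in H21, 7.21 to 8.06 in H40, 7.09 to 8.25 in H60 and 7.01 to 8.12 in H100, so every group spanned most of the range. Neural progenitor markers had r = 0.525 in brain (0.75 in the first run and 0.277 later) and APC/C subunits 0.024.

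In eye the member mean moved against 6 measured rod photoreceptor markers (Gnat1, Pde6a, Pde6b, Nrl, Sag and Crx), at r = -0.86 and rho = -0.879 over 56 arrays. It was -0.845 without the 2 arrays farthest out, -0.919 in the first run (37 arrays) and -0.881 later (19). Within the 26 arrays above their group mean of rod markers r was -0.58 and within the 30 below it -0.636. Each of the 40 members had r below 0, from -0.915 to -0.474. Lens crystallins and membrane genes had r = -0.602 (-0.688 in the first run and -0.522 later) and neuron markers -0.577 (-0.718 and -0.16). Neural progenitor markers had 0.643 (0.746 and 0.375) and retinal progenitor markers 0.511 (0.692 and 0.152). Within arrays above their group mean of retinal progenitor markers r was 0.309, and within those below it -0.0766.

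The rod marker mean also differed between the eye groups. Its group means were 9.81 in N21, 9.99 in N100, 9.75 in H21, 9.62 in H40, 9.73 in H60 and 9.77 in H100, so N100 had the highest rod mean and the lowest mitosis mean. Single arrays ran from 9.35 to 10.66 in N100 and from 9.07 to 10.63 over the hypoxia groups. The difference between hypoxia and normoxia for single rod markers was -0.42 for Gnat1, -0.31 for Pde6a, -0.20 for Sag, -0.14 for Pde6b, -0.039 for Crx and 0.0026 for Nrl, and 0 of the 6 passed. The part of rod content in the eye contrasts of the mitosis genes was not tested.

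In lung the member mean moved with DNA replication genes (r = 0.67, rho = 0.617, 60 arrays; 0.556 without the 2 farthest, 0.70 in the first run and 0.811 later). In brain this r was 0.90 (0.92 in the first run and 0.772 later) and in eye 0.874 (0.896 and 0.847), and differences between tissues were not tested. Cohesin genes had r = 0.605 in lung. The most negative list there was CDK inhibitors and p53 targets at -0.451 (-0.286 in the first run and 0.225 later), followed by type 1 alveolar cell markers at -0.418 (-0.411 and -0.117) and lens genes at -0.416 (-0.334 and -0.207). Erythroid markers were at -0.404 (-0.392 and -0.0716). In total 21 lists were set against the member mean in each tissue, with no p given.

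**Figure D5:**
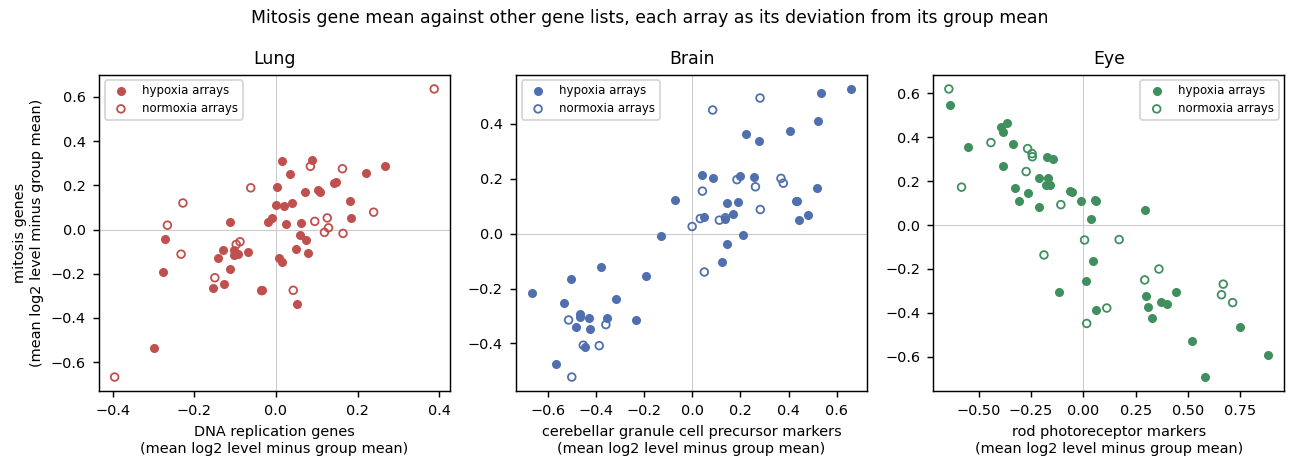
Mitosis gene mean of each array (log2, minus its group mean) against the mean of DNA replication genes in lung, granule cell precursor markers in brain and rod markers in eye; filled points are hypoxia arrays and open points normoxia arrays. The relation rises in lung (r = 0.67) and brain (r = 0.863) and falls in eye (r = -0.86); since group means were removed, no difference between hypoxia and normoxia can show here.

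The member levels also differed between the runs of sample records, with groups as terms in limma. In lung 26 of 40 members were lower and 1 higher in the later runs (67.5%, against 56.5% of all genes), with Cenpe, the kinetochore kinesin, at -0.62 ± 0.093 and Ube2c at 0.19 ± 0.056. In brain 16 were higher and 0 lower (40%, against 44.8%), led by Ccna2, cyclin A, at 0.46 ± 0.12. In eye 15 were lower and 0 higher (37.5%, against 38.7%), led by Ect2 at -0.46 ± 0.12. The median run difference of the members was -0.27 in lung, 0.20 in brain and -0.19 in eye, each larger in size than their median hypoxia estimate there. In eye 8 of 9 N100 arrays were of the first run, against 5 of 9 in N21.

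Arrays with the same group and number in different tissues may come from the same animal, which the labels do not state. In the first run they had the same sex, read from the arrays, in 38 of 38 pairs of lung and brain, 36 of 37 of lung and eye and 36 of 37 of brain and eye. In the later runs this held for 10 of 18, 10 of 16 and 14 of 16, so equal numbers there need not mean 1 animal. Over the first-run pairs the member mean, as its deviation from the group mean, had r = 0.395 between lung and eye (rho = 0.39, and 0.294 without the 2 farthest), 0.289 between lung and brain (rho = 0.0938, and -0.0255) and -0.2 between brain and eye (rho = -0.2, and -0.251). Over the later pairs it was 0.187 for lung and eye (rho = -0.0029, and -0.243), -0.237 for lung and brain (rho = -0.236, and -0.443) and 0.491 for brain and eye (rho = 0.515, and 0.439). For brain with eye the sign thus turned between the runs. For lung with brain it did so only with the 2 farthest kept. The first-run value for lung and brain rests on those 2 samples. For lung with eye r turned only without the 2 farthest (0.294 and -0.243), and rho went from 0.39 to -0.0029. N100 number 7, singled out after its values were seen, had the lowest member mean of all lung arrays (7.49) and of all brain arrays (6.31), and the second lowest of all eye arrays (6.64).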

How the data were processed

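Expression was measured on 61 arrays labelled lung, 59 labelled brain and 57 labelled eye. The authors deposited log2 values after RMA, per the labels, with the version not given in the sources used here; each tissue has its own distribution, so levels are compared within a tissue only. Per the labels' protocols 10 ng of RNA was used, and the extraction text describes a blood procedure although the samples are tissue. Of 34760 probe sets, 21640 had 1 gene symbol, 1321 several and 11799 none, and the brightest probe set per gene left 19937 genes.

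The 6 groups of a tissue were fitted together with limma 3.58.1 in R 4.3.3 (lmFit and eBayes, two-sided, Benjamini-Hochberg adjustment over all genes, calls at an adjusted p under 0.05). The script was tested on simulated data. Number of arrays, not read depth, limits the precision. The text names every member called, the 8 members of smallest p in a tissue for all hypoxia, and called genes of other lists or, for lack of calls, extremes; Cdk1 and N100 number 7 were added after their values were seen. Members and lists were chosen with earlier results of these data known. The replicate numbers were not used to pair arrays. Tables and figures used pandas 2.3.3, numpy 2.4.6 and matplotlib 3.10.9.

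Alternatives were array quality weights, sex, run or replicate number as terms, the first run alone, another normalization, filters on dim genes and on poorly correlated arrays, every probe set, smaller fits, arrays of another tissue kept, and each array left out in turn. Promoter windows came from RefSeq, GRCm38.p6.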

Additional observations from a re-analysis of the deposited data

Results flagged for a closer look

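The mean of the DNA replication genes held 2 arrays far from the others of their group, among 26 groups and quantities examined for the mitosis and DNA replication means. In Lung H21, array number 2 was low at 7.32, with the nearest array at 7.55. In Brain H21, array number 7 was high at 7.51, with the nearest at 7.16. The mitosis member mean had no array so far from its group in the groups of up to 10 arrays examined. With this many groups examined, some such arrays arise by chance.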

How the results depend on the processing

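Under the 11 alternatives to the fits of the report, all chosen at the outset, the number of members called stayed at 0 in every comparison but one. For eye H100 minus N100 it was 3 with array quality weights; the cause was not tested. The estimate of Ncapd2 in brain for all hypoxia turned to -0.0051 within the first run of records. Leaving out each array in turn, for all hypoxia minus all normoxia, gave 0 to 0 members called in each tissue, with member medians of -0.019 to 0.060 in lung, -0.0081 to 0.064 in brain and 0.099 to 0.16 in eye, and 3 to 7 DNA replication genes called in lung (9 with array quality weights, 0 in the first run alone). With the replicate number as a block, 0 members were called in each of 30 results and no member's call changed; within a tissue, the correlation of same-numbered arrays of different groups ran from -0.507 to 0.745 in lung (median 0.127), -0.45 to 0.728 in brain (0.129) and -0.34 to 0.66 in eye (0.030), so the numbers were not taken as pairs, and 12 of 59, 12 of 58 and 15 of 55 arrays correlated best with their own number. Fits of only the groups compared gave 27 results. Without the dimmest 40 percent of genes, 40 members were left in lung, 32 in brain and 35 in eye.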
